A study of Mus musculus with 4 samples.

Results

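Olfactory sensory neurons (OSN), the odor-detecting neurons of the nasal lining, were found among nuclei of mouse brain tissue. They were selected on measured UMI counts (unique molecular identifiers, each a counted transcript) in both libraries labelled striatum, as the nuclei with at least 3 UMIs summed over Gfy, Stoml3, Umodl1 and Ttll10. At most 1 UMI was allowed of Cyp2g1 and Aox2, which mark the sustentacular cells that support these neurons, and at most 1 UMI of Mog, Aqp4, Csf1r and Cldn5, which mark glia, microglia and endothelium of the brain. The rule took 240 nuclei of the 41190 in these libraries, in a series of 78728 nuclei. Single-nucleus RNA-seq covered tissue labelled cortex and tissue labelled striatum, each from AAV-CTRL and from AAV-VEGF-C mice, with 1 library for each of the 4 groups. Brains of 5 male mice aged 8 weeks were pooled in each AAV group, and nuclei were isolated from powdered frozen tissue. All mice had been injected with a viral vector (AAV, adeno-associated virus) through the cisterna magna. AAV-VEGF-C carried vascular endothelial growth factor C, and AAV-CTRL carried a soluble VEGF receptor 3 fragment that does not bind this factor, fused to an immunoglobulin tail. With 1 library per group there was no replicate and no test, and every interval given is a 95% interval for counting error only. Ppp1r1b, which encodes DARPP-32 and marks striatal projection neurons, stood at 18.1 counts per 1000000 UMIs (CPM) in both libraries labelled striatum and at 62.6 and 74.8 in those labelled cortex, so that the region names are used here as labels only. In the library labelled striatum AAV-CTRL, 222 of 23724 nuclei met the rule, with a median of 2043.5 UMIs, and in the one labelled striatum AAV-VEGF-C 18 of 17466 did, with a median of 3051.5. No nucleus among the 240 shared its barcode with the other library labelled striatum, although 115 barcodes occurred in both.

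An olfactory sensory neuron chooses a single odorant receptor gene from a very large family, and all its receptor proteins come from that gene. Odorant binding in the cilia activates the G protein Golf and adenylyl cyclase 3, and the cAMP formed opens a cyclic nucleotide-gated channel, after which a calcium-gated chloride channel enlarges the current. The axon runs through the cribriform plate to a glomerulus of the olfactory bulb, so that the cell bodies lie in the nose and not in the brain.

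The genes of the rule are described first, since they chose the nuclei and support nothing. Gfy gave 341 UMIs in 171 of the 240 nuclei, Stoml3 639 in 201, Umodl1 273 in 151 and Ttll10 348 in 173. The sum ranged from 3 to 22 UMIs with a median of 5, and all 4 genes were detected in 64 nuclei, 3 of them in 95, 2 in 74 and 1 alone in 7. Just inside the threshold, 49 nuclei had 3 UMIs, and 36.7% of them held at least 3 UMIs of some odorant receptor gene. Just outside, 74 nuclei with 2 UMIs had such a gene in 14.9%, and 29824 nuclei with none in 0.141%. The 49 nuclei with 10 or more UMIs had one in 89.8%.

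The label was then read from 10 genes that the rule did not use: Omp, Cnga2, Cnga4, Adcy3, Gnal, Ano2, Rtp1, Gng13, Ebf2 and Lhx2. A nucleus held a median of 5 of them, and 214 of 240 nuclei (89.2%) held at least 3, against 1.59% of oligodendrocyte nuclei (at least 3 UMIs of Mog and Mobp) from the same libraries. Those oligodendrocyte nuclei, which should lack these genes, had a median of 2190 UMIs and the OSN nuclei of 2075. The same count was not made in the neuroblast, Slc17a6 neuron or sustentacular nuclei used below. It therefore does not show how far the 10 genes together set OSN nuclei apart from other neurons. Under 2 of the 10 genes were found in 12 nuclei, of which 1 had a receptor gene at 3 UMIs and 4 had no receptor UMI. The nuclei are therefore called OSN as a population, while single members near the threshold are less certain. Scrublet called 22 of the 222 nuclei and 0 of the 18 as doublets.

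Genes of odorant transduction stood high in these nuclei. The 15 genes of the list in the files summed to 9974 CPM (9725 to 10228), against 1067 in all other nuclei of both libraries, a ratio of 9.35 (9.11 to 9.59). At least 4-fold higher were 12 of 15 genes and none was 4-fold lower, with a median log2 ratio of 3.59. Over all 21451 genes with at least 20 UMIs, 5.43% were 4-fold higher and 1.55% 4-fold lower, with a median log2 ratio of -0.22. The rule chose the nuclei within this same contrast, so these counts describe them and are not a test. Every nucleus had a UMI of the list, from 1 to 88 with a median of 24.

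Detection differed widely between the steps of the cascade. Gnal, the alpha subunit of Golf, gave 945 UMIs in 216 nuclei and was 9.90-fold (9.27 to 10.6) above other nuclei. Ric8b, a factor that assists Golf, stood 12.1-fold higher and Adcy3, the cyclase, 12.1-fold higher. Of the channel subunits, Cnga2 was 159-fold (119 to 211) higher with 83 UMIs in 65 nuclei, Cnga4 was 123-fold higher with 67 UMIs in 53, and Cngb1 was 39.0-fold higher with 96 UMIs in 73. Ano2, the chloride channel, was 57.9-fold higher and was seen in 153 nuclei. Omp, the olfactory marker protein of mature neurons, was 51.7-fold (44.9 to 59.3) higher but was detected in only 51.2% of the nuclei, against 2.56% of other nuclei. Pde1c, a phosphodiesterase that removes cAMP, gave 1945 UMIs in 226 nuclei and was 31.6-fold higher. The 3 genes under 4-fold were Gnb1 at 3.34, the chloride loader Slc12a2 at 2.36 and the receptor kinase Grk3 at 0.432.

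**Figure D1:**
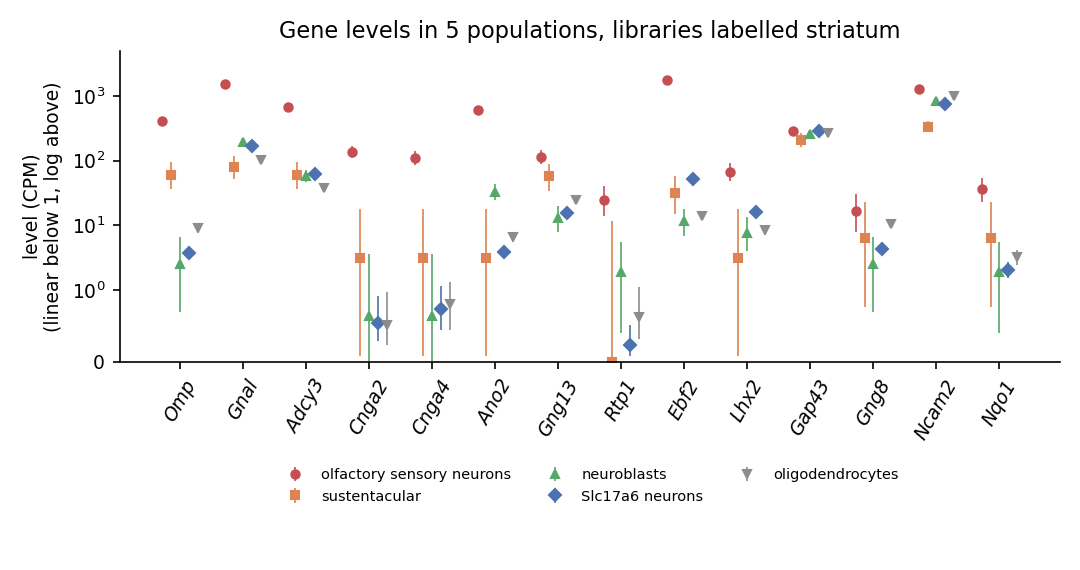
Levels in CPM (linear below 1, log above) of 14 genes in OSN, sustentacular, neuroblast, Slc17a6 neuron and oligodendrocyte nuclei of both libraries labelled striatum, with 95% Poisson intervals. Omp stood at 414 in OSN nuclei and 60.3 in sustentacular nuclei, while Gap43 and Ncam2 differed far less between populations.

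The cyclic nucleotide-gated channel genes were low elsewhere, although Cngb1 gave 584 UMIs in 542 other nuclei. Cnga2 stood at 136 CPM in OSN nuclei and at 0.542 in Slc17a6 neuron nuclei, on 14 UMIs. It stood at 0.638 in neuroblast and 3.17 (0.0803 to 17.7) in sustentacular nuclei, on 1 UMI each. Omp and S100a5 did leave UMIs in sustentacular nuclei, at 60.3 and 73.0 CPM against 414 and 496 in OSN nuclei. Of the 15 transduction genes, 10 were 4-fold above sustentacular nuclei, 12 above neuroblast nuclei and 13 above Slc17a6 neuron nuclei, where 4.11%, 4.28% and 6.02% of all genes tested were 4-fold higher and 4.17%, 2.90% and 2.30% were 4-fold lower.

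Many genes of these neurons are known to be bound by OLF/EBF factors, so the promoters were searched on both strands for the exact letters TCCCNNGGG, chosen after the values were seen. The RefSeq windows of the GRCm38.p6 build ran from 250 bases before to 50 bases after each start, and 11 of the 15 transduction genes and 19 of the 25 leading genes described below had one. The match stood in 4 of these 11 (Ano2, Cnga2, Gng13 and Pde4a) and in 4 of these 19 (Ano2, BC049352, Cnga2 and Kirrel2), against 7.48% of 27025 genes and 6.56% of 32851 promoters. Among the rule genes, Gfy and Umodl1 held it. A longer form, the same letters with a final A added, was also searched. This longer form stood in 0 of the 11 transduction genes and in 1 of the 19 leading genes (BC049352), against 1.06% of 27025 genes. Of the rule genes, only Gfy held the longer form. A match describes letters and not a bound site. Windows are given for the rule gene Gfy (chr7:45179548-45179847, minus strand) and for leading genes. The latter are Cnga2 (chrX:71991599-71991898, plus strand), Ano2 (chr6:125710938-125711237, plus strand) and Kirrel2 (chr7:30457466-30457765, minus strand). Gfy helped to choose the nuclei, so its match supports nothing. Each window runs 5′ to 3′ along the gene with the match in capitals. In Cnga2 and in Ano2 it began 67 bases before the start.
Gfy: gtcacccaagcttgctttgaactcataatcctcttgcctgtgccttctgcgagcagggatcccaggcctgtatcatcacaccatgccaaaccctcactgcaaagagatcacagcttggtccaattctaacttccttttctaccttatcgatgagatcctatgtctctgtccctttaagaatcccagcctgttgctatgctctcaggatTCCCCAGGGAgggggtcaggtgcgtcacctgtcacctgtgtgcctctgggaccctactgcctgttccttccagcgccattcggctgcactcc
Cnga2: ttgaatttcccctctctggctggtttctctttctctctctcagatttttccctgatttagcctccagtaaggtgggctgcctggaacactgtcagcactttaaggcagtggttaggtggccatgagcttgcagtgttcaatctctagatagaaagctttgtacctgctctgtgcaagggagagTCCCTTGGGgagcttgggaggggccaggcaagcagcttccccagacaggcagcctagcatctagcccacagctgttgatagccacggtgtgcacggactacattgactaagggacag
Ano2: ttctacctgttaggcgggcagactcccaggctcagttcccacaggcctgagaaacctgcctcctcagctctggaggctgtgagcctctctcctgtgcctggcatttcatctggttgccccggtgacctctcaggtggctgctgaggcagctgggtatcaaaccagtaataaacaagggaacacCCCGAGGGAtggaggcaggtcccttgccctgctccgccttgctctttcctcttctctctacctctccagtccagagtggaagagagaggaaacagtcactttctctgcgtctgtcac
Kirrel2: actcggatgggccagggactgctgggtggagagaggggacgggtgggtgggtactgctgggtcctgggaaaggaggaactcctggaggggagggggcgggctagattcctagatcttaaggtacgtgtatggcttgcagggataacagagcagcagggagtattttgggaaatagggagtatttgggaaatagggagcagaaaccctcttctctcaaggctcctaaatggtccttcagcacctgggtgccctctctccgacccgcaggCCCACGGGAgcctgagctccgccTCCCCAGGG

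The EBF genes themselves were high. Ebf2 gave 1079 UMIs in 223 of the 240 nuclei and was 52.3-fold (48.9 to 55.9) above other nuclei, Ebf3 was 24.3-fold, Ebf4 22.1-fold and Ebf1 9.30-fold higher. In the list of receptor choice and transport, 9 of 15 genes were 4-fold higher and 0 lower, with a median log2 ratio of 3.22. Of all genes tested, 5.43% were 4-fold higher and 1.55% lower. The homeodomain factors Lhx2 and Emx2 were 6.09-fold and 13.5-fold higher. Rtp1 and Rtp2, which carry receptors to the surface, were 33.6-fold and 68.2-fold higher, although on only 15 and 21 UMIs. Atf5, a factor of the feedback by which a chosen receptor is kept, was 21.6-fold higher. Kdm1a and Eif2ak3, also of that feedback, stood at 1.27 (0.936 to 1.70) and 1.16 (0.775 to 1.67), and Ldb1, the partner of Lhx2, at 1.98.

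The 25 genes with the highest ratio over other nuclei, among those with at least 30 UMIs in OSN nuclei and a UMI in at least 20% of them, ranged from 305-fold (241 to 387) for Gm43055 to 31.6-fold for Pde1c. They held 6 transduction genes (Cnga2, Cnga4, Cngb1, Ano2, Omp and Pde1c) and a group of genes with other roles. Tmprss6, a transmembrane serine protease, was 214-fold higher with 145 UMIs in 105 nuclei. B4galnt3, a glycosyltransferase, was 203-fold higher with 282 UMIs in 137 nuclei. Stom, the membrane protein stomatin and a relative of Stoml3, gave 418 UMIs in 177 nuclei and was 72.3-fold higher. Kirrel2 and Nphs1, adhesion proteins of the immunoglobulin superfamily, were 141-fold and 152-fold higher. Those genes are neighbours on chromosome 7 of the GRCm38 annotation, at 30447534 to 30457690 on the minus strand and at 30458315 to 30487223 on the plus strand, with 624 bases between them. Nphs1 was found in 54 nuclei and Kirrel2 in 97. The noncoding gene 4930438E09Rik, 56.4-fold higher, lies within Ebf2 on the opposite strand, so that only strand could tell its reads from those of Ebf2. Whether reads in introns were counted is not given in the sources used here. The library labelled striatum AAV-CTRL and the one labelled AAV-VEGF-C gave ratios over their own other nuclei of 247 and 408 for Gm43055, 149 and 415 for B4galnt3, and 48.7 and 44.6 for Ebf2. For Omp the ratios were 34.8 (30.0 to 40.2) and 91.1 (53.8 to 146), with 949 and 208 Omp UMIs in the other nuclei. For S100a5 they were 28.7 and 110. The lowest of these ratios over the 25 genes and both libraries was 18.5, for BC049352 in the library labelled AAV-VEGF-C.

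Odorant receptor transcripts were sparse per gene but present in nearly every nucleus. The 1093 Olfr genes of the files summed to 1580 UMIs in OSN nuclei, or 2595 CPM (2469 to 2726), against 95.1 in other nuclei. A receptor UMI was found in 224 of 240 nuclei (93.3%, 89.4 to 96.1), and in 16.8% of oligodendrocyte and 17.2% of sustentacular nuclei, which should lack them. It was found in 41.5% of neuroblast and 39.5% of Slc17a6 neuron nuclei, whose median depths were 5704 and 6077 UMIs. Among all other nuclei of both libraries the share was 24.6%. At least 3 UMIs of 1 receptor gene separated these populations further, with 161 of 240 OSN nuclei (67.1%, 60.7 to 73.0). Such a gene was found in 0.134% of oligodendrocyte and 0.462% of Slc17a6 neuron nuclei, and in 0 of 116 sustentacular and 0 of 260 neuroblast nuclei. In thinned nuclei of 1000 UMIs each, which left out 2 nuclei, 82.4% had a receptor UMI.

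In most of the 161 nuclei a single receptor gene led. No second receptor gene was detected in 101 nuclei, and it stood at 1 UMI in 47, at 2 UMIs in 7 and at 3 or more in 6. The leading gene had a median of 6 UMIs and at most 35, and it held 91.8% of all receptor UMIs of these nuclei. These nuclei were chosen for at least 3 UMIs of 1 receptor gene, which favours a leading gene. That choice left out nuclei with several receptor genes at 1 UMI each, so these counts describe the 161 nuclei and are not a test. Over all 240 nuclei, 35.4% (29.4 to 41.8) held UMIs of more than 1 receptor gene, 5.42% did at 2 UMIs each and 2.50% at 3 UMIs each. In 4 of the 13 nuclei whose second gene had at least 2 UMIs, both genes lay in the same run of receptor genes, split at gaps over 500000 bases. So did 9 of the 47 second genes at 1 UMI. The share for any 2 receptor genes was not computed, so these counts do not show that such pairs favour a run. The clearest pair from different runs was Olfr749 on chromosome 14 with 12 UMIs and Olfr228 on chromosome 2 with 7 UMIs in 1 nucleus. A pair from the same run was Olfr601 with 8 UMIs and Olfr591 with 3, on chromosome 7 with other receptor genes between them. Droplets that held more than 1 nucleus and free RNA were not told apart from co-expression here.

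**Figure D2:**
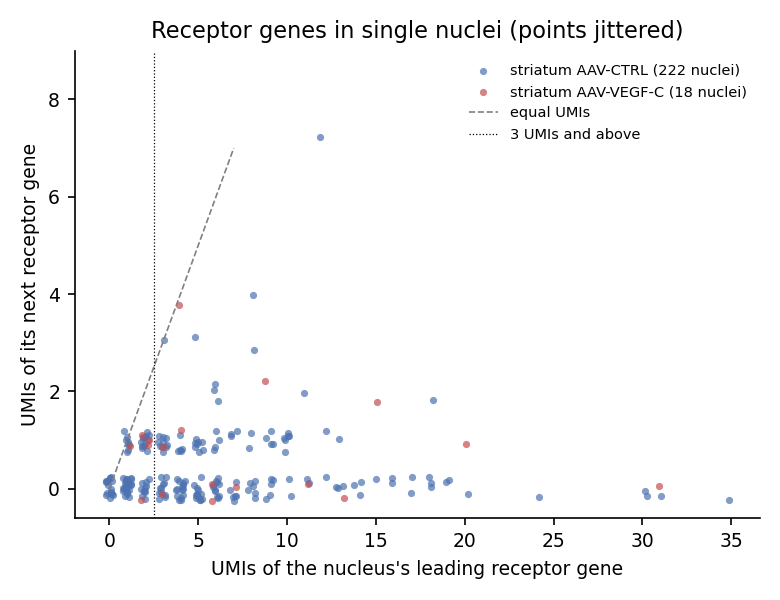
UMIs of the leading receptor gene of each OSN nucleus against UMIs of its next receptor gene, for 222 nuclei labelled AAV-CTRL and 18 labelled AAV-VEGF-C. Most points lie on the floor of the plot, since 101 of the 161 nuclei right of the dotted line (3 UMIs and above) had no second receptor gene.

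The leading receptors were diverse. The 161 nuclei had 136 different leading genes, of which 114 led in 1 nucleus, 19 in 2 and 3 in 3. Olfr533, Olfr601 and Olfr969 were the genes that led in 3 nuclei, with 13, 11 and 5, with 10, 8 and 7, and with 13, 9 and 9 UMIs. By summed UMIs Olfr728 (chromosome 14, 50133758 to 50142680, minus strand) came first with 20 and 19 UMIs in 2 nuclei, followed by Olfr804 (chromosome 10, 129703210 to 129710018, plus strand) with 35 UMIs in 1 nucleus. Of the 12 receptor genes with the most UMIs, 5 were detected in 1 OSN nucleus each. The 13 nuclei labelled AAV-VEGF-C had 13 different leading genes, and 5 of these also led in nuclei labelled AAV-CTRL. Leading genes lay on 14 chromosomes. Chromosome 7 held those of 31.1% of the nuclei (24.0 to 38.8) and 21.6% of the receptor genes, and chromosome 2 those of 19.9% (14.0 to 26.9) and 25.6% of the genes. The homeodomain letters TAATGA, searched on both strands, stood in the promoter window of 28 of 114 leading receptor genes (24.6%) and of 269 of 927 receptor genes with a window (29.0%), against 11.3% of all genes, while TCCCNNGGG stood in 2.59% of receptor genes.

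Class I receptors, an old group of the family, lie in one run on chromosome 7 that also holds the beta-globin genes. This run, from Olfr543 to Olfr692 (102476579 to 105369355 in GRCm38), held 124 receptor genes, 11.3% of all, and gave the leading gene of 22 of the 161 nuclei (13.7%, 8.77 to 20.0). Nuclei led by a class I gene and nuclei led by a class II gene, as all others are called, differed in genes known to follow the zones of the nasal epithelium. Nqo1, a quinone reductase of the dorsal zone, was found in 7 of 22 class I nuclei (31.8%, 13.9 to 54.9) and in 5 of 139 class II nuclei (3.60%, 1.18 to 8.19), and its summed level was 8.30-fold (2.39 to 29.9) higher in the former. Ncam2, the adhesion protein OCAM of the ventral zone, was found in 5 of 22 (22.7%, 7.82 to 45.4) and in 109 of 139 (78.4%, 70.6 to 84.9), with a ratio of 0.187 (0.0960 to 0.330). Nrp2, an axonal receptor of the ventral zone, had a ratio of 0.319 (0.0641 to 0.972), on 3 UMIs in 2 class I nuclei and 67 UMIs in 44 class II nuclei. Acsm4, another dorsal gene, stood at 0.889 (0.0200 to 6.63) on 9 UMIs in all, and Omp and Gap43 at 1.12 (0.719 to 1.69) and 1.32 (0.751 to 2.20). Class I and class II nuclei had median depths of 1860.5 and 2119 UMIs. The ratio intervals of Nqo1, Ncam2 and Nrp2 left out 1, and those of the other 3 genes held it. They cover counting error of UMIs only and are no test between the classes.

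**Figure D3:**
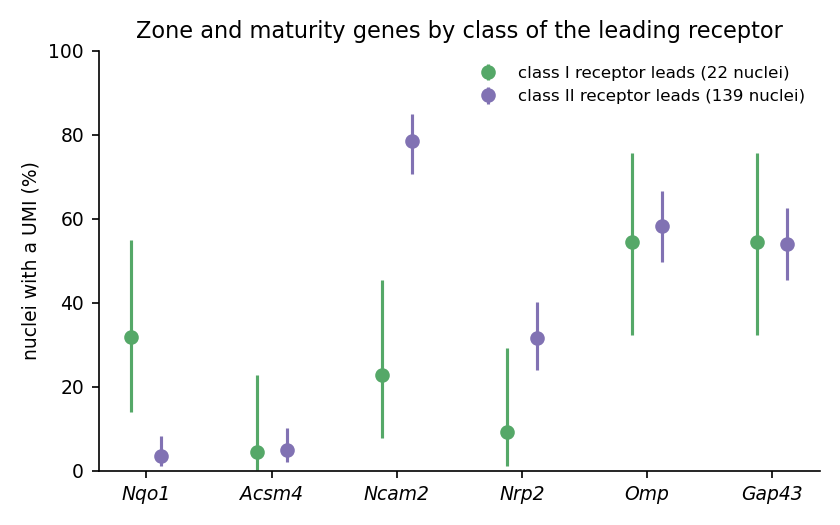
Percent of nuclei with a UMI of 6 genes among 22 OSN nuclei led by a class I receptor gene and 139 led by a class II gene, with 95% Clopper-Pearson intervals. Nqo1 was found in 31.8% and 3.60% and Ncam2 in 22.7% and 78.4%, while the intervals for Acsm4, Nrp2, Omp and Gap43 overlapped.

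Counted over all 240 nuclei, Nqo1 or Acsm4 without Ncam2 was found in 16 nuclei, Ncam2 alone in 168, both in 10 and neither in 46. Ncam2 was detected in 38.5% of the 26 nuclei with a dorsal gene and in 78.5% of the others, at median depths of 1916 and 2086 UMIs.

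Markers of maturity did not sort the nuclei into separate groups at this depth. Omp without Gap43 and Gng8, genes of immature neurons, was found in 55 nuclei, Gap43 or Gng8 without Omp in 58, both in 68 and neither in 59. Omp had UMIs in 81 of the 139 class II nuclei (58.3%) and in 30 of the 79 nuclei without a receptor gene at 3 UMIs (38.0%, 27.3 to 49.6). Gap43 stood at 0.980 (0.840 to 1.14) of its level in other nuclei, which include many brain neurons, and Gng8 at 2.53 (1.21 to 4.68) on 10 UMIs. Against 5.43% of all genes tested, 3 of the 16 genes of the immature list were 4-fold higher. They were Nhlh1 on 1 UMI, Trib3 on 5 and Tex15 on 32 UMIs from 9 nuclei. Precursors were near the floor, with Neurog1 and Neurod1 at 0 UMIs, which allows up to 4.93 CPM, and Mki67 and Top2a at 2 UMIs each.

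Genes of the axon and synapse, which brain neurons share, showed smaller differences. Against 5.43% of all genes tested, 3 of 21 genes in the list of axon guidance and sorting were 4-fold higher. They were Kirrel2, the adhesion protein Cntn4 at 6.93 (6.67 to 7.19) with UMIs in 230 nuclei, and the semaphorin receptor Plxna3 at 4.48. Ncam1 was 2.42-fold and Robo2 2.86-fold higher, whereas Robo1 stood at 0.474. Of 12 genes of the glutamatergic terminal none was 4-fold higher or lower, with a median log2 ratio of 0.14. Slc17a6, the vesicular glutamate transporter of these axons, stood at 1.52 (1.28 to 1.79), and Drd2, whose receptor dampens their release, at 3.71 (2.67 to 5.03). Of 12 ion channel genes 2 were 4-fold higher, Scn9a (Nav1.7) at 6.90 (6.24 to 7.61) in 175 nuclei and the T-type calcium channel Cacna1h at 7.95 (6.45 to 9.71) in 78. Kcnq3 stood at 0.435.

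The cilia of these neurons are immotile, and both cilium lists were measured. None of 19 primary cilium genes was 4-fold higher, but their median log2 ratio was 0.99, with Ift122 at 3.32 and Bbs9 at 3.04. Against 5.43% of all genes tested, 6 of 16 motile cilium genes were 4-fold higher. Among them were Dnah11 at 19.3 (16.6 to 22.3) in 119 nuclei, Cfap44 at 11.3 in 87 nuclei and Ccdc40 at 10.3. Foxj1, the regulator of motile cilia, was found in 9 nuclei. The list was not spread evenly, since 33 nuclei had none of it and 3 had 10 or more UMIs of it. Of those, 1 nucleus labelled AAV-CTRL with 6676 UMIs held 75 motile cilium UMIs, including 18 of Dnah12, but 2 transduction UMIs, no Ebf2, and only Stoml3 among the rule genes. A second held 22 motile cilium UMIs, 2 transduction UMIs and no receptor UMI. Without the 3 nuclei, Dnah11 stood at 18.9, Cfap44 at 10.9 and Ccdc40 at 9.37, while Dnah12 went from 28 to 3 UMIs, and 5 of 16 genes were 4-fold higher.

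Genes of other nasal pathways were rare among the nuclei. The rule took nuclei by 4 chosen genes, so how common neurons of those pathways were in the tissue cannot be read here. Gucy2d, the receptor guanylyl cyclase of necklace neurons, gave 18 UMIs in 4 nuclei and was 213-fold (106 to 425) above other nuclei, with 9, 4, 3 and 2 UMIs. None of these 4 nuclei had a UMI of Cnga2, Adcy3 or Gnal, although Gnal was found in 90.0% of all OSN nuclei, and 2 of the 4 had no receptor UMI while the other 2 had 1 each. Car2, a carbonic anhydrase that necklace neurons also use, gave 1, 2, 6 and 6 UMIs in them. Each of these nuclei had 3 or 4 UMIs of the rule genes. Trpc2, the channel of vomeronasal neurons, was at 0 UMIs in the OSN nuclei and in the other nuclei, so its count cannot show whether such neurons were present. The 123 Vmn2r genes summed to 11 UMIs, at 0.638 (0.318 to 1.14) of the level in other nuclei, and the 15 trace amine receptor genes to 1 UMI.

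Markers of other cells were also measured in the OSN nuclei. The sustentacular list, of which Cyp2g1 and Aox2 were limited by the rule, had no UMI in 184 of the 240 nuclei. Without those genes it summed to 100.2 CPM, against 39.7 in other nuclei. Against 5.43% of all genes tested, 2 of its 10 genes were 4-fold higher, Sec14l3 on 14 UMIs and Krt18 on 5. Cyp2a5 stood at 32.8 CPM and Cbr2 at 8.21, against 1444 and 1088 in sustentacular nuclei. The astrocyte list summed to 713 CPM, the oligodendrocyte list to 1831, the microglial list to 264 and the endothelial list to 59.1, against 936, 3155, 169 and 233 in other nuclei, which include those cells. In neuroblast, Slc17a6 neuron and sustentacular nuclei, chosen with the same limit on brain genes, the levels were lower. They were 313, 445 and 517 CPM for the astrocyte list, 891, 911 and 1402 for the oligodendrocyte list and 81.1, 104 and 85.7 for the microglial list. In the microglial list Cx3cr1 was 3.68-fold (2.95 to 4.53) higher with UMIs in 68 nuclei, while Csf1r, limited by the rule, stood at 4 UMIs and Tmem119 at 2. Their part in the values above was not tested.

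Several calls in the remaining lists rested on 8 or fewer UMIs. Of all genes tested, 5.43% were 4-fold higher and 1.55% lower. In the list of olfactory bulb projection neurons 3 of 5 genes were 4-fold higher, the cadherin gene Cdhr1 at 10.3 (6.92 to 14.7) in 26 nuclei, Eomes on 8 UMIs and Tbx21 on 1. In that of Bowman gland and mucus 3 of 9 genes were, namely Bpifa1, Muc5b and Obp1b on 8, 6 and 5 UMIs, and in that of microvillous cells 1 of 5, Trpm5 on 2 UMIs. The precursor list had 1 of 9 (Krt5 on 1 UMI), the vomeronasal list 1 of 5 (Calr4 on 2 UMIs) and the necklace and trace amine list 2 of 4 (Gucy2d, and Cnga3 on 2 UMIs). Both dorsal genes were 4-fold higher, Nqo1 at 10.9 and Acsm4 at 11.3, and neither ventral gene was. Against sustentacular nuclei, however, 1 dorsal gene was 4-fold higher and 1 was 4-fold lower. The dorsal genes summed to 52.6 CPM (35.9 to 74.2) in OSN nuclei and to 92.0 (61.6 to 132) in sustentacular nuclei, so they were not particular to OSN nuclei. Among 8 activity-regulated genes S100a5 at 44.8 and Kirrel2 at 141 were, while Egr1 stood at 1.02 and Fos at 2 UMIs. No gene was 4-fold higher in the lists of ensheathing glia, neuroblasts, brain neurons, astrocytes, oligodendrocytes, microglia, endothelium, fibroblasts, osteoblasts and the VEGF-C axis. In these, 3 endothelial genes (Flt1, Cdh5 and Kdr), Dlx1 and, in the VEGF-C axis, Kdr again were 4-fold lower. The brain neuron list stood at 0.524 (0.508 to 0.540) of its level in other nuclei.

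The share of OSN nuclei was lower in the library labelled striatum AAV-VEGF-C. It was 0.936% (0.817 to 1.07) in the library labelled AAV-CTRL and 0.103% (0.0611 to 0.163) in the one labelled AAV-VEGF-C, a log2 ratio of -3.18 (-3.96 to -2.49). Sustentacular nuclei (at least 3 UMIs of Cyp2g1 and Aox2) numbered 112 and 4, a log2 ratio of -4.37 (-6.27 to -2.97), and nuclei with at least 3 UMIs of the osteoblast genes Bglap and Ibsp numbered 34 and 0. Neuroblast nuclei (at least 3 UMIs of Dlx genes and 1 of Dcx) numbered 170 and 90, at -0.48 (-0.86 to -0.10). Oligodendrocyte nuclei numbered 3008 and 2967, at 0.42 (0.35 to 0.50), and Slc17a6 neurons 1920 and 1973, at 0.48 (0.39 to 0.57). The amount of nasal tissue that reached a library and any effect of the virus cannot be told apart here. In the libraries labelled cortex the same rule took 3 of 17168 nuclei of AAV-CTRL and 5 of 20370 of AAV-VEGF-C, and 0 sustentacular nuclei. These 8 nuclei held UMIs of between 0 and 3 receptor genes. The leading receptor gene had 5, 1 and 5 UMIs in the nuclei of AAV-CTRL and 1, 4, 0, 1 and 48 (Olfr1253) in those of AAV-VEGF-C. Omp had 0, 2 and 1 UMIs in the former and 0, 0, 0, 0 and 1 in the latter. Not all of them can therefore be called OSN.

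**Figure D4:**
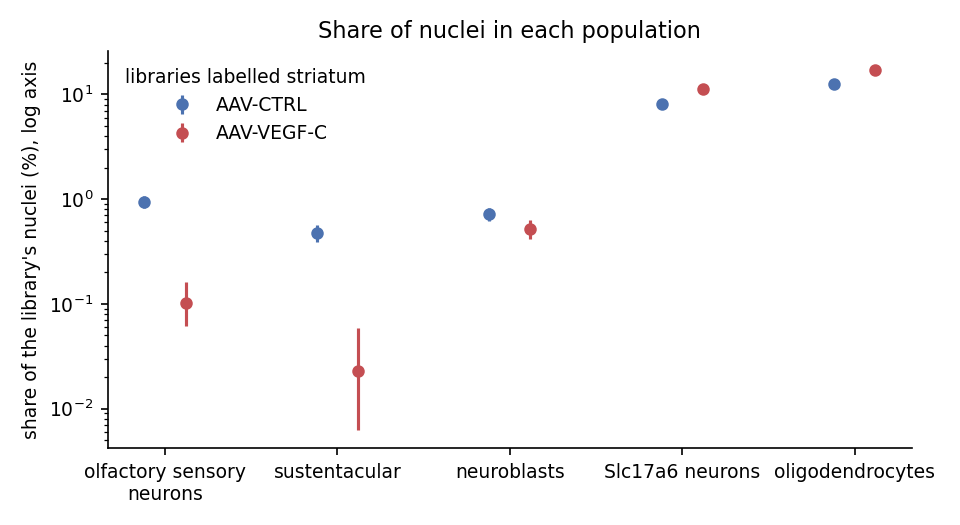
Share of each library's nuclei (percent, log axis) in 5 populations of the libraries labelled striatum AAV-CTRL and AAV-VEGF-C, with 95% Clopper-Pearson intervals. The share of OSN nuclei was 0.936% and 0.103% and that of sustentacular nuclei 0.472% and 0.0229%, while Slc17a6 neurons and oligodendrocytes had higher shares in the library labelled AAV-VEGF-C.

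Within OSN nuclei, expression was compared between 222 nuclei labelled AAV-CTRL with 540967 UMIs and 18 labelled AAV-VEGF-C with 67896 UMIs, where a count of 0 allows up to 44.2 CPM. The transduction list had a log2 ratio (AAV-VEGF-C over AAV-CTRL) of -0.13 (-0.26 to -0.01), which became 0.04 (-0.10 to 0.17) without 3 AAV-VEGF-C nuclei described below. It became -1.33 (-1.43 to -1.23) without the limit on brain genes, which left 250 and 25 nuclei, so its size depended on that limit. Gnal stood at 0.13 (-0.17 to 0.41), Adcy3 at -0.17 (-0.66 to 0.29), Ano2 at 0.40 (-0.05 to 0.82) and Omp at -0.62 (-1.38 to 0.05). None of its 15 genes was 2-fold higher and 1 was 2-fold lower, namely Cnga4 with 64 and 3 UMIs. Of the 6510 genes with at least 20 UMIs in OSN nuclei, 5.90% were 2-fold higher and 13.3% 2-fold lower, with a median log2 ratio of -0.11.

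The list of receptor choice and transport stood at -0.38 (-0.55 to -0.22), and at -0.18 (-0.37 to -0.00203) without those 3 AAV-VEGF-C nuclei. Ebf2 had a log2 ratio of -0.46 (-0.79 to -0.15) and Ebf3 of -0.69 (-1.22 to -0.20). The axon guidance list was at -0.18 (-0.27 to -0.08), in which Cntn4 stood at -0.57 (-0.78 to -0.37) and Kirrel3 at 0.75 (0.45 to 1.03). The immature list was at -0.01 (-0.33 to 0.29) and the motile cilium list at -0.52 (-0.93 to -0.13). The 3 nuclei rich in motile cilium UMIs were all labelled AAV-CTRL, and without them that list stood at -0.31 (-0.72 to 0.09). Without the limit on brain genes it turned to 1.31 (1.24 to 1.38), while the receptor choice list went to -1.72 (-1.87 to -1.57), the axon guidance list to -1.19 (-1.27 to -1.11) and the immature list to -1.09 (-1.34 to -0.84).

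Genes of the VEGF-C axis were read for the delivered factor. Vegfc itself gave 2 UMIs, both in nuclei labelled AAV-CTRL, Kdr gave 2 and Flt4, the main VEGF-C receptor gene, gave 0. Over whole libraries Vegfc was not higher under the AAV-VEGF-C label, at 12.1 CPM against 12.9 in the libraries labelled striatum and 11.6 against 12.2 in those labelled cortex, so these counts gave no check of the AAV labels. Whether transcripts of the vector were counted is not given in the sources used here. The list stood at -1.25 (-2.27 to -0.38), at -0.44 (-0.80 to -0.09) without the limit on brain genes, and nearly all its UMIs came from the neuropilins, which are also semaphorin receptors of axons. Nrp2 gave 112 UMIs in 67 nuclei labelled AAV-CTRL and 4 UMIs in 4 nuclei labelled AAV-VEGF-C, a log2 ratio of -1.81 (-3.71 to -0.42), and Nrp1 gave 75 and 4 UMIs at -1.23 (-3.15 to 0.18).

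**Figure D5:**
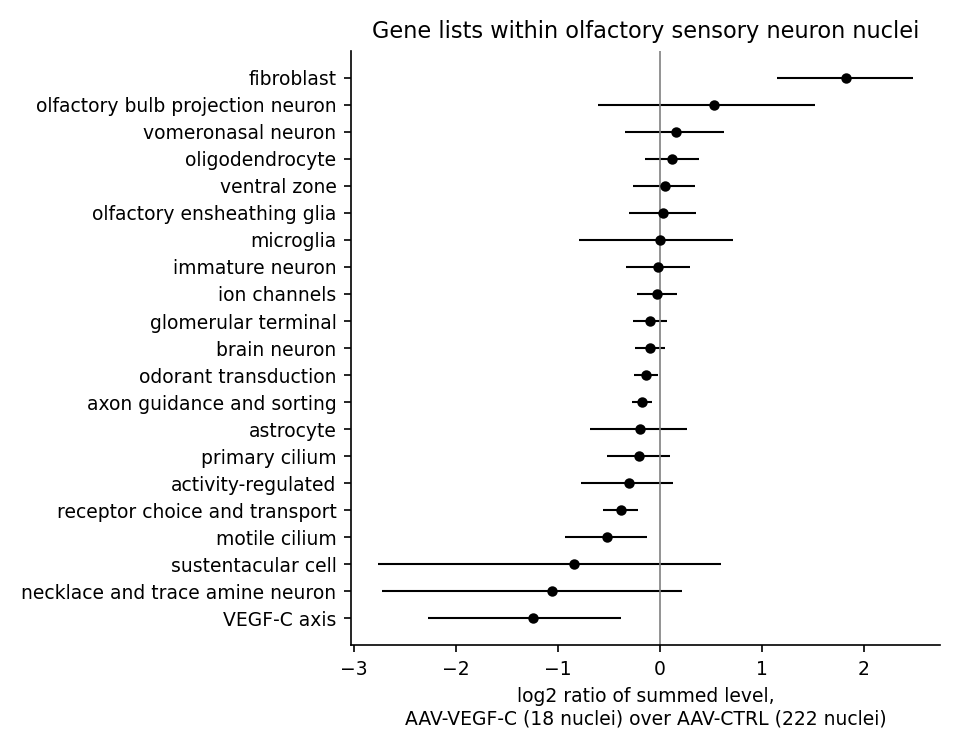
Log2 ratio (AAV-VEGF-C over AAV-CTRL) of the summed level of 21 gene lists with at least 50 UMIs in OSN nuclei, with 95% exact conditional binomial intervals. The transduction list lay at -0.13 and most lists close to 0, the fibroblast list was highest at 1.83 and the VEGF-C axis lowest at -1.25.

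The genes at the ends of the scale rested on few nuclei. Among 2885 genes with at least 50 UMIs, the 6 lowest (Col25a1, Fbxo9, Vezt, Faim, Gm45881 and Cdkl4) had 1 UMI each in the 18 nuclei and 58 to 70 UMIs in the 222, with log2 ratios from -3.14 to -2.86. Of the 70 UMIs of Col25a1, 28.6% came from 1 nucleus. The 6 highest were Gm28928, Ptgds, Cdh13, St18, Tmem108 and Tnr, from 5.08 (4.18 to 6.07) for Gm28928 to 2.08 (1.57 to 2.58) for Tnr. One nucleus held 49 of the 55 UMIs of Gm28928 and 23 of the 38 of Cdh13. A second held 165 of the 209 UMIs of Ptgds, an abundant prostaglandin D synthase of glia and meninges, and 16 of the fibroblast list. Another held 42 of the 52 UMIs of Tnr and 21 of the 30 of Tmem108. These 3 nuclei had 31, 6 and 6 receptor UMIs. Without them the log2 ratios were -0.20 (-5.61 to 2.54) for Gm28928, 0.92 (0.41 to 1.40) for Ptgds, 1.53 (0.57 to 2.39) for Cdh13, 2.09 (0.99 to 3.08) for St18, 0.33 (-1.18 to 1.55) for Tmem108 and -0.11 (-1.37 to 0.92) for Tnr. The fibroblast list was at 1.83 (1.15 to 2.48) with all nuclei, at 1.06 (0.04 to 1.97) without them and at 0.47 (-0.10 to 1.01) without the limit on brain genes, with Col1a1 at 28 and 12 UMIs and Col1a2 at 21 and 13.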

How the data were processed

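Deposited values were UMI counts per gene and nucleus. Per the file headers the authors made them with Cell Ranger 5.0.1, while the submitters' processing notes name Cell Ranger 5.1.1 and the build mm10. The authors prepared the libraries with the 3′ chemistry of 10x Genomics. The files held 78728 nuclei, the number left by the authors' filters on low counts, debris and doublets, and total counts per library ran from 63165470 to 78332657. Here counts were summed over nuclei and scaled to 1000000 (CPM). Levels carry exact Poisson intervals, shares Clopper-Pearson intervals and ratios exact conditional binomial intervals, all at 95%. A count of 0 was bounded by 3 counts. Genes were called at 4-fold over other nuclei (at least 20 UMIs on both sides together) and at 2-fold between AAV labels (at least 20 UMIs in OSN nuclei), the 10 rule genes left out. Comparison populations had at most 1 UMI of the 4 neuron genes of the rule and, save oligodendrocytes, of the brain genes. Slc17a6 neurons had at least 2 UMIs of Slc17a6 and 1 of Snap25. Named genes were those of 28 lists, the 25 leading genes, the 6 highest and 6 lowest between AAV labels and the 12 receptor genes with the most UMIs. Members and lists were chosen with earlier results of these data known. The class I run, promoter motifs and single-nucleus accounts were added after the values were seen. Scrublet (scanpy 1.11.5, expected doublets 8%) marked 7.9% of the AAV-CTRL and 4.3% of the AAV-VEGF-C nuclei labelled striatum, which were kept. Scripts were tested on simulated counts.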

Additional observations from a re-analysis of the deposited data

Results flagged for a closer look

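The share of OSN nuclei in AAV-VEGF-C over AAV-CTRL had opposite directions in the libraries of both region labels, with a log2 ratio of -3.18 (-3.96 to -2.49) in those labelled striatum and 0.49 (-1.87 to 3.18) in those labelled cortex. The latter rested on 3 and 5 nuclei and its interval held 0. The difference between the labels was not tested, since each group was 1 library.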

How the results depend on the processing

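The share ratio in the libraries labelled striatum ranged from -3.36 to -2.88 over 8 other settings of the rule, doublets, barcodes and depth, and the number of OSN nuclei from 187 to 314. The log2 level of the transduction list over other nuclei was 3.22. It was 2.89 at a threshold of 2 UMIs, 3.34 at 4 UMIs, 3.32 without Ttll10, 2.62 without the brain cap, 3.32 without doublets and 3.15 in the library labelled AAV-VEGF-C alone. Between AAV labels this list went from -0.13 to 0.019 at 2 UMIs, -0.28 at 4 UMIs, -1.33 without the brain cap and 0.038 without the 3 nuclei rich in single genes. The 1165 genes at least 4-fold higher became 622 at a minimum of 100 UMIs and 326 at a minimum of 20 UMIs in the OSN nuclei themselves, since fewer genes were counted. The last setting and the 2 that left out single nuclei were chosen after seeing the data. The share of OSN nuclei with a receptor UMI (93.3%) was 84.1% at 2 UMIs, 96.8% without Ttll10, 100% in the library labelled AAV-VEGF-C, 82.4% after thinning to 1000 UMIs and 78.8% at 2 UMIs of a gene. The share with more than 1 receptor gene (35.4%) was 55.6%, 18.5% and 5.42% in the last 3 of these. Without the brain cap, the log2 level over other nuclei turned to -0.23 for the immature, -0.38 for the glomerular terminal and -0.12 for the ion channel list and to 0.40 for the astrocyte list, and between AAV labels to 1.31 for the motile cilium and -0.031 for the osteoblast list. In 1 library alone, the fibroblast list turned to -0.30 (AAV-CTRL) and the VEGF-C axis to -0.76 (AAV-VEGF-C). The causes were not tested. Of 772 alternative values, 646 stayed within the counting interval or 1.5 times the count. No paired analysis was possible because each group was 1 library and the labels carry no replicate numbers. The 18 nuclei labelled AAV-VEGF-C limit every comparison of expression between AAV labels.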
